A study of Mus musculus with 4 samples.

Results

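The 10 genes described here are ligands, receptors, the nuclear effector and target genes of the Notch pathway (Dll1, Jag1, Jag2, Notch1, Notch2, Notch3, Rbpj, Hes1, Hes5 and Hey1), measured with 14 probes in RNA recovered with an antibody against the RNA-binding protein CPEB2. They are 10 of 24164 gene symbols on the array and of 19698 genes that could be tested. They were chosen by the value of Hes1 in this same comparison and by their place in the same pathway. That value was among the largest of all genes. The values of the members, and whether they passed in a fit to all genes, are therefore a description, with no p-value for any member. RNA immunoprecipitation (RIP) isolates a protein on antibody-coated beads together with the RNA attached to it, and beads coated with an IgG of no such specificity show how much RNA sticks regardless. Lysate of cortex and hippocampus from male C57BL/6 mice aged 8 weeks was divided between beads carrying CPEB2 IgG and beads carrying control IgG in each of 2 experiments, which gave 2 arrays per antibody and 2 pairs of arrays. The labels name no transgene, deletion or treatment of the mice, and no array of the lysate's own RNA was analysed here, so an RNA that is recovered well and an RNA that is abundant in the beads for another reason cannot be told apart. A description field of the CPEB2 IgG samples reads CPEB3 IgG, whereas their titles and the treatment protocol name CPEB2, and the antibody is called CPEB2 IgG throughout. The question was whether the high Hes1 signal with CPEB2 IgG extended to the ligands, receptors and other targets of its pathway.

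Notch signaling passes between touching cells. A ligand of the Delta or Jagged type on the surface of a cell binds a Notch receptor on its neighbour. ADAM proteases and then the gamma-secretase complex cut the receptor. The freed intracellular domain joins the DNA-binding protein RBPJ and coactivators of the Mastermind family to switch on certain Hes and Hey genes. These encode basic helix-loop-helix repressors that hold back proneural genes, and in the brain the pathway is known for maintaining neural stem cells and astrocytes. CPEB2 belongs to the family of cytoplasmic polyadenylation element (CPE)-binding proteins, which bind U-rich elements in the 3'-untranslated region of mRNAs and control their translation.

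All 4 arrays lay on the same slide, each antibody had its own positions there, so position and antibody cannot be told apart, and the share of spots well above background was 68.4% to 74.1%. The 75th percentile of the signal lay between 418.1 and 443.1 on the 4 arrays. Cpeb2 itself gave 2410 and 1877 on the CPEB2 IgG arrays against 299 and 297 on the control arrays, a 7.41-fold difference after scaling. Gapdh, a housekeeping gene with many near-identical copies in the genome, gave 48250 and 39694 against 253696 and 266689. Of 34 marker genes of brain cell types, 33 were detected, and the neuronal marker Rbfox3 (24654 to 28862) was bright on every array. None of the detected markers was at 0. Of the 6 astrocyte markers, limma (described with the counts of calls) placed 2 as higher with CPEB2 IgG, Gja1 and Slc1a3, and 3 as lower, Gfap, Aldh1l1 and S100b, at log2 fold changes from -3.77 (Aldh1l1) to 3.44 (Slc1a3). The summed signal of the 6 was 39323 and 35517 with CPEB2 IgG against 36146 and 25610 with control IgG. The part of cell type in the values of the Notch pathway genes was not tested. By the study's methods, the arrays of a pair came from the same divided lysate. Marker differences within a pair are therefore differences in recovered RNA, not in numbers of cells.

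The array reports each gene through probes of 60 bases, and 4 of the 10 genes carried a pair of probes that gave different values, so the last 30 bases of these probes are shown with that of Hes1, the gene with the largest difference. They are printed as the array file gives them, 5' to 3' on the strand of the gene, in the mm9 build. Capitals mark AATAAA, the polyadenylation signal, and the Hes1 piece covers probe bases 30 to 59, centred on this word. The positions are those of the whole 60-base probes.
Hes1 (chr16:30067820-30067879, plus strand): ttgagaaaatatAATAAAagagtgaaggct
Dll1, brightest probe (chr17:15504623-15504682, minus strand): agaaacacaactgcctttattgtccttttt
Dll1, other probe (chr17:15513726-15513785, minus strand): agtgatcgtggacaacacggagacagcagc
Notch1, brightest probe (chr2:26319440-26319499, minus strand): aacagtgaagaagaagaagatgcacctgct
Notch1, other probe (chr2:26314630-26314689, minus strand): aaaagaacgtgacaggagaagggaagctgg
Notch2, brightest probe (chr3:97953914-97953973, plus strand): aaggtgttcagtgttcacgtgtgatttcag
Notch2, other probe (chr3:97951233-97951292, plus strand): gatgtgaccaccagcccaactcctggaggt
Rbpj, brightest probe (chr5:54048503-54048562, plus strand): tatttcatccatgaaaactctgcaatacgg
Rbpj, other probe (chr5:54044777-54044836, plus strand): ccagcacaaattctaccagtgtcacatcgt
The GC content of these probes ran from 26.7% for Hes1 to 55% for the brightest Notch1 probe and for the other probes of Dll1 and Notch2. None of the 14 probes held either word of the CPE, TTTTAT or TTTTAAT, on the strand of the gene, where 4.54% of all 55615 probes held at least 1 of them, and the Hes1 probe was the only 1 of the 14 with AATAAA, which 10.1% of all probes held. The opposite strand of the Hes1 probe read TTTTAT where the gene's strand has ATAAAA, and 6.51% of all probes held a CPE word on that strand. The words were searched within the probes only, and where each probe lies relative to exons and untranslated regions was not determined because no mm9 annotation was used here.

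With CPEB2 IgG the signal of Hes1, Hes5, Rbpj, Notch2, Notch3, Dll1 and Jag1 was higher than with control IgG in both experiments, and that of Notch1 and Hey1 was not. Jag2 was higher in both, but its values in the 2 experiments lay far apart. Signals are spot intensities after the scanner software's background subtraction. A log2 fold change is CPEB2 IgG minus control IgG within an experiment, after each array was scaled to its 75th percentile, and is given as mean ± SD over the 2 experiments. For each gene the brightest probe was used, and other probes are given separately.

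**Figure D1:**
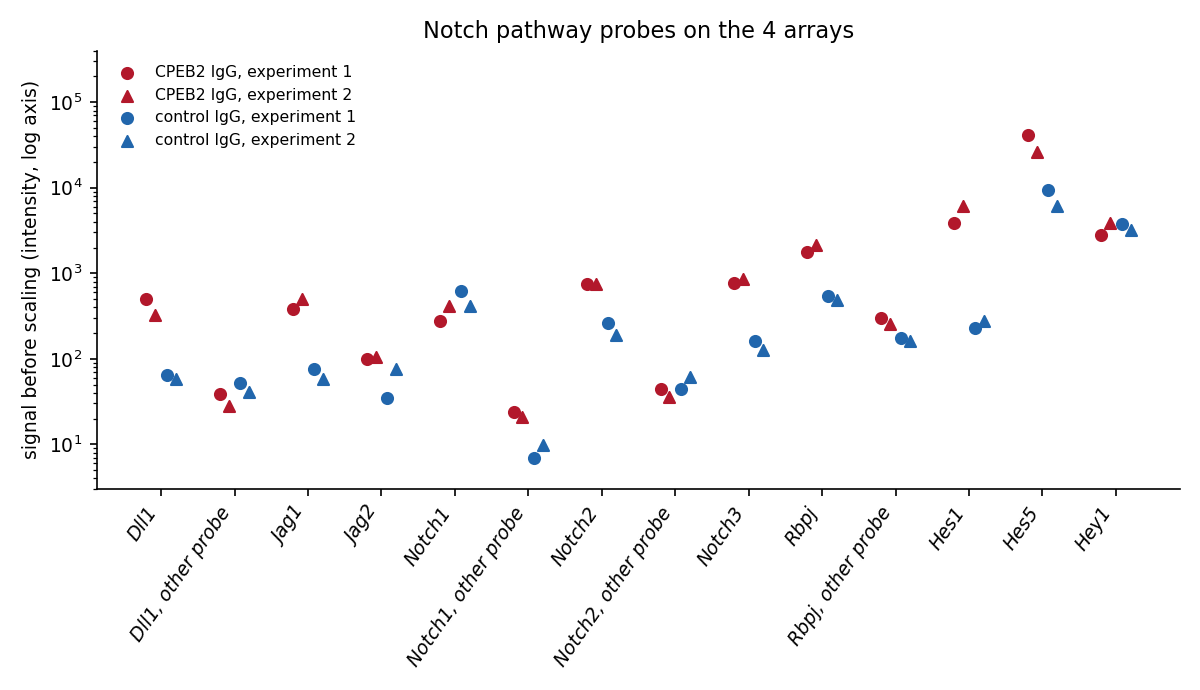
Signal of the 14 Notch pathway probes (intensity before scaling, log axis) on the 2 CPEB2 IgG arrays (red) and the 2 control IgG arrays (blue), with circles for experiment 1 and triangles for experiment 2. Hes1 lies at 231 and 273 with control IgG and at 3841 and 6139 with CPEB2 IgG, while the other probes of Dll1 and Notch2 lie close together on all 4 arrays.

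Hes1, a repressor of proneural genes and a target of Notch, gave signals of 3841 and 6139 with CPEB2 IgG against 231 and 273 with control IgG. The groups did not overlap, and the dimmer CPEB2 IgG array lay far above both control arrays. How many of all genes have groups that do not overlap was not counted. Non-overlap is therefore only a description, here and for the other members. The log2 fold change was 4.14 in experiment 1 and 4.51 in experiment 2 (4.33 ± 0.27, SD, n = 2), a 20.1-fold difference, and 4 of the 19698 genes had a larger one. Hes5, a related repressor expressed in neural stem cells and astrocytes, was the brightest of the 10 genes, with 41145 and 26054 with CPEB2 IgG against 9468 and 6185 with control IgG. Its CPEB2 IgG and control IgG signals did not overlap although it was already bright with control IgG. The log2 fold change of Hes5 was 2.20 and 2.10 in the 2 experiments (2.15 ± 0.07), 4.44-fold, the smallest spread of the 10 genes. Hey1, a repressor of the Hey family, gave 2812 and 3880 with CPEB2 IgG against 3719 and 3173 with control IgG. These signals overlapped, and the log2 fold change changed sign between the experiments, at -0.32 and 0.31 (-0.0034 ± 0.45). The 3 targets thus had control IgG signals of 231 to 9468 and fold changes of 20.1, 4.44 and 0.998, in an order that did not follow their signal.

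Rbpj encodes the DNA-binding protein through which all 4 receptors act. Its brightest probe gave 1778 and 2120 with CPEB2 IgG against 544 and 487 with control IgG, with no overlap, and the log2 fold change was 1.97 ± 0.25 (3.92-fold). Its other probe, 3726 bases upstream along the gene, gave 302 and 253 against 177 and 162. That probe was also higher in both experiments, by less, with a log2 fold change of 0.76 ± 0.13 (1.69-fold).

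Among the ligands, the brightest Dll1 probe, which is printed in 10 spots on each array, gave 502 and 327 with CPEB2 IgG against 64.1 and 57.9 with control IgG. The spots of an array varied by 3.80% and 5.06% (coefficient of variation) on the CPEB2 IgG arrays and by 15.7% and 12.04% on the control arrays, where 9 of the 10 spots were kept on the array of experiment 1. Spots of an array measure technical spread only. The log2 fold change of Dll1 was 3.05 and 2.52 (2.79 ± 0.37), 6.90-fold. The other Dll1 probe, annotated to a separate Ensembl transcript, lay near the dim end of the scale, with 39.1 and 28.1 against 51.8 and 40.7. There the sign was opposite, with a log2 fold change of -0.42 ± 0.13. Jag1, a ligand of the Jagged type, gave 386 and 507 with CPEB2 IgG against 76.9 and 57.4 with control IgG, with no overlap and a log2 fold change of 2.79 ± 0.53 (6.90-fold). Jag2, its relative, gave 98.7 and 104 against 34.3 and 75.2. All 4 Jag2 signals were dim, the log2 fold change was 1.61 in experiment 1 and 0.48 in experiment 2 (1.05 ± 0.79), and this was the largest spread of the 10 genes.

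The 3 receptors differed among themselves. Notch3, known in the brain for its expression in the mural cells of blood vessels, gave 761 and 847 with CPEB2 IgG against 163 and 126 with control IgG, with no overlap and a log2 fold change of 2.54 ± 0.32 (5.81-fold). Of 4 mural markers, 2 were higher with CPEB2 IgG (Pdgfrb, 2.14, and Anpep, 2.05, on the log2 scale) and 1 was lower (Rgs5, -1.08), the summed signal of the 4 was 1735 and 1906 against 879 and 773, and their part in the Notch3 value was not tested. The brightest Notch2 probe gave 744 and 753 against 265 and 191, again with no overlap, and a log2 fold change of 1.79 ± 0.30 (3.45-fold). Its other probe gave 43.8 and 36.1 against 44.2 and 60.6, with the 2 CPEB2 IgG signals below both control signals, and a log2 fold change of -0.33 ± 0.56. Notch1, the receptor best known from neural stem cells, gave 276 and 411 with CPEB2 IgG against 619 and 418 with control IgG at its brightest probe. The CPEB2 IgG signals were the lower pair, by a wide margin in experiment 1 and by little before scaling in experiment 2, and the log2 fold change was -1.08 and 0.0016 (-0.54 ± 0.77). At its other probe the signal was 24.0 and 20.6 with CPEB2 IgG and was not well above background on either control IgG array, with measured values of 7.0 and 9.89. That probe was therefore at least 1.80-fold brighter with CPEB2 IgG, computed against the higher of its own signal and the lowest signal well above background on each control array.

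**Figure D2:**
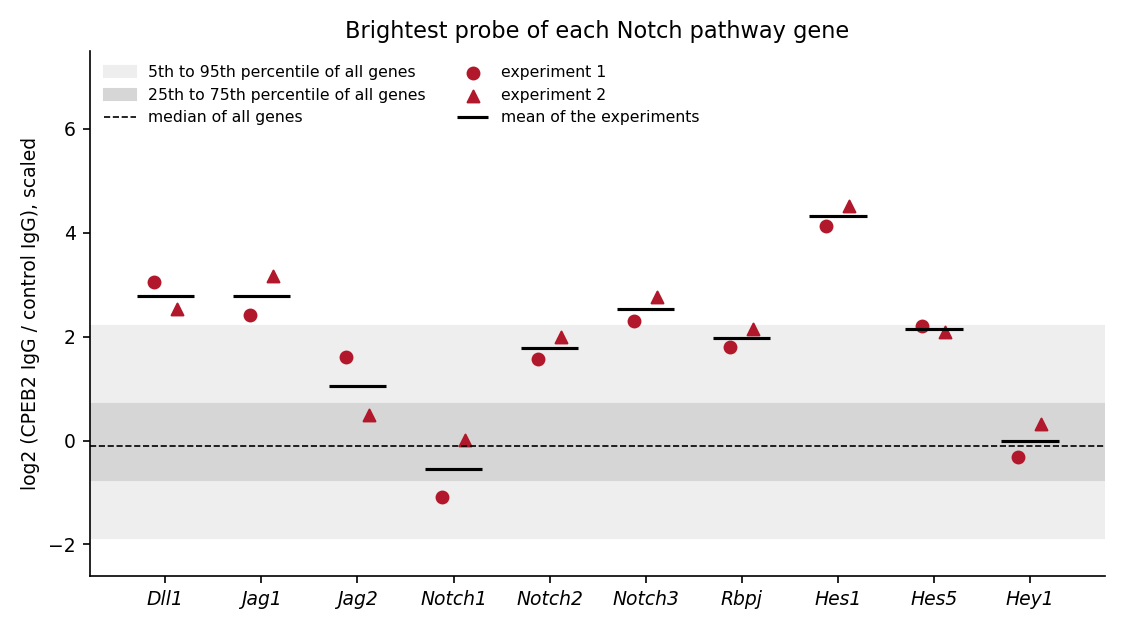
Log2 fold change (CPEB2 IgG over control IgG, scaled) of the brightest probe of each gene in experiment 1 (circles) and experiment 2 (triangles), with the mean of the experiments as a bar. Grey bands hold the 5th to 95th and the 25th to 75th percentile of all 19698 genes, and Hes1, Dll1, Jag1 and Notch3 lie above the wider band in both experiments.

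Across all genes tested the median log2 fold change was -0.11, the middle 50% of genes lay between -0.76 and 0.71, and 5% of genes were above 2.20. Hes1 stood at the 99.98th percentile, Dll1 and Jag1 at the 98.0th, Notch3 at the 97.0th, Hes5 at the 94.6th, Rbpj at the 93.2nd and Notch2 at the 91.5th. Jag2 was at the 81.4th, Hey1 at the 54.6th and Notch1 at the 32.4th. The median of the 10 genes was 2.06. In limma fitted to all genes with the experiment as a block, 7 of the 10 passed an adjusted p of 0.05 as higher with CPEB2 IgG, none passed as lower, and Jag2, Notch1 and Hey1 did not pass. In the same fit 21.2% of all genes passed as higher and 20.4% as lower, 4174 and 4020 genes. Since Hes1's value in this comparison led to the choice of its pathway, nothing is read from the count of members. The same holds for the call of a member under any setting. Median centring of the arrays in place of the 75th percentile moved the median of all genes by 0.23 and turned the calls over all genes to 5212 higher and 3301 lower.

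Jag2 passed under 5 of the 18 ways of processing that gave a call, Notch1 under none, and Hey1 passed as lower when arrays were centred within bins of probe GC content. Notch2 did not pass when the mean of its probes was taken. The study's methods use a signal above 1000 and a fold change above 1.5, and also require a CPE in the 3'-untranslated region. The CPE was not examined here, so passing the other thresholds does not meet the study's definition of a target. A signal above 1000 on a CPEB2 IgG array was reached by 4 of the 10 genes (Hes1, Hes5, Hey1 and Rbpj). Of these, 3, all but Hey1, also had a mean fold change above 1.5. Of 7013 genes with such a signal, 46% had such a fold change. Dll1, Jag1, Notch2 and Notch3 had the fold change but not the signal, since their brightest CPEB2 IgG signals lay between 502 and 847. Jag2 (2.06-fold) also lacked the signal, at 98.7 and 104.

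The value of a gene depended on which of its probes was read. In all 4 genes with a pair of probes, the probe nearer the 3' end of the gene had the higher log2 fold change in both experiments, and in all 4 it also had the lower GC content. For Dll1 the probes lay 9103 bases apart in the genome and differed by 3.21 on the log2 scale, with GC contents of 36.7% and 55%. For Notch2 they lay 2681 bases apart and differed by 2.11, with GC contents of 41.7% and 55%. For Rbpj the difference was 1.21, at 35.0% and 45.0% GC. For Notch1 the measured difference was 2.02 over 4810 bases, at 40.0% and 55% GC, and rests on a 3' probe that was not well above background with control IgG.

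The same direction was common on the array. Of 5153 genes with at least 2 detected probes on the same chromosome and strand, 72.9% had the higher log2 fold change at the probe nearest the 3' end, with a median difference of 0.53. The share was 79.2% of the 3232 genes whose 3' probe had the lower GC content, 67.5% of the 748 genes with equal GC content and 58.8% of the 1173 genes whose 3' probe had the higher GC content. The labels state amplification with a Low Input Quick-Amp kit, and the part of labeling, probe base composition and RNA fragments in these differences was not tested.

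**Figure D3:**
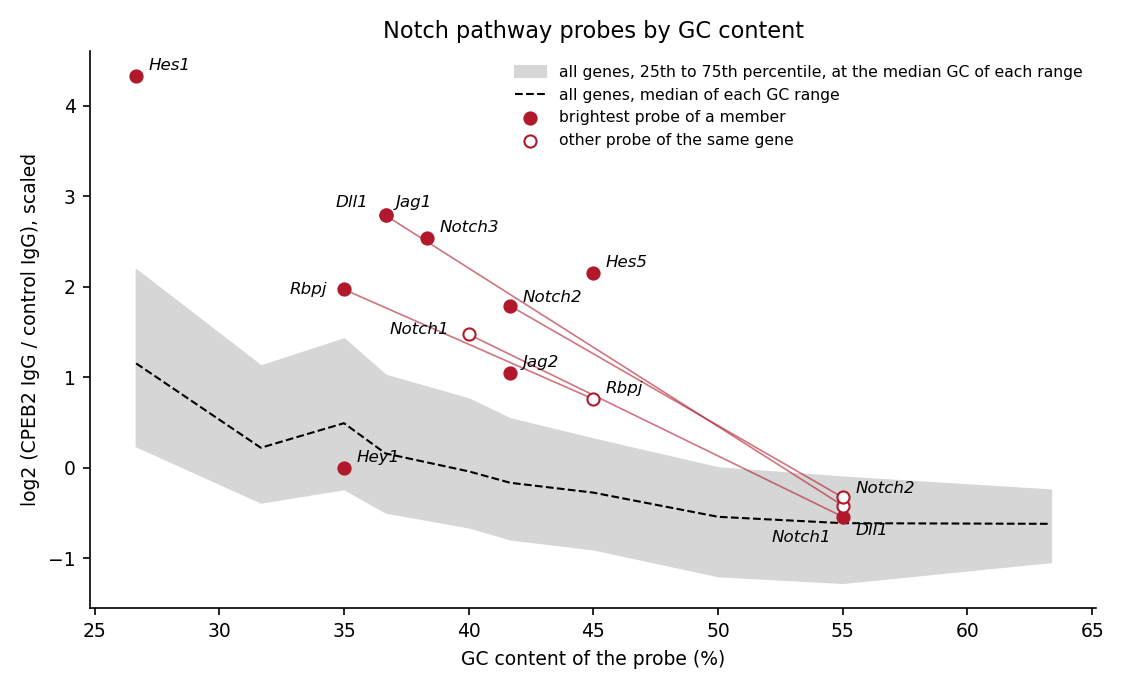
Log2 fold change (CPEB2 IgG over control IgG, scaled, mean of the 2 experiments) against the GC content of the probe in percent, for the brightest probe of each Notch pathway gene (filled) and other probes of the same gene (open, joined by a line). The dashed line and grey band give the median and the 25th to 75th percentile of all genes at the median GC content of 10 ranges. The all-gene median is 1.15 in the range of Hes1 and -0.61 at 55% GC, and the 3 member probes at 55% GC lie between -0.54 and -0.33.

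Over all genes the log2 fold change was lower at higher GC content of the probe, from a median of 1.15 in 296 genes with probes of up to 30% GC to -0.61 in 1557 genes at 55%. Against genes in the same range of GC content, Hes1 stood at the 99.7th percentile and the enriched ligands at the 97.8th (Dll1) and 97.9th (Jag1). Notch3 stood at the 97.6th, Hes5, whose probe has 45.0% GC, at the 97.7th, and Notch2 at the 93.0th. Rbpj moved down to the 85.8th and Hey1 to the 32.4th, while Notch1 moved up to the 53.8th and Jag2 to the 84.6th. With arrays centred within GC bins, the log2 fold change of Hes1 was 3.32, that of Rbpj 1.22, that of Hes5 2.46 and that of Hey1 -0.75. Hes1 kept the largest value of the 10 genes there, and Hey1 took the lowest.

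**Figure D4:**
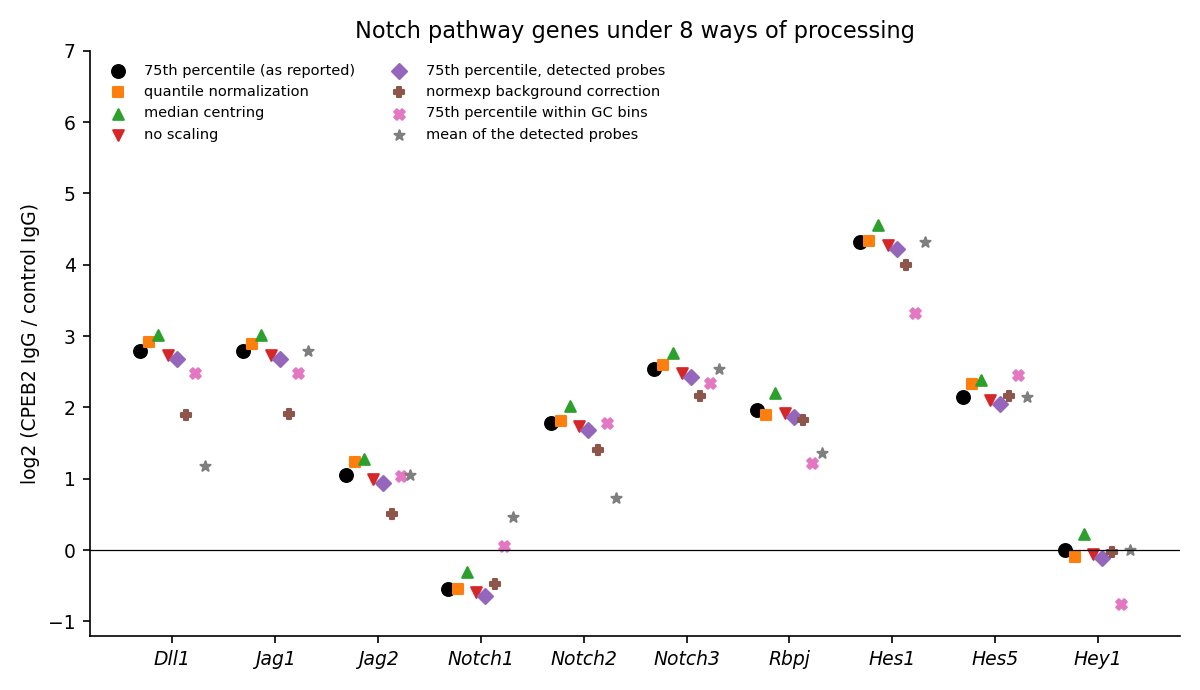
Log2 fold change (CPEB2 IgG over control IgG) of the 10 Notch pathway genes under 8 ways of processing, black circles being the values reported above. Hes1 ranges from 3.32 to 4.55, Dll1 falls to 1.18 and Notch2 to 0.73 when the mean of the detected probes is taken, and Notch1 and Hey1 lie on either side of 0.

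Across the scalings, background corrections, filters and probe rules tried, the log2 fold change of Hes1 ran from 3.32 to 4.55, that of Hes5 from 2.04 to 2.46 and that of Notch3 from 2.16 to 2.77. Jag1 ran from 1.90 to 3.01, Rbpj from 1.22 to 2.20 and Jag2 from 0.51 to 1.27. Dll1 ran from 1.18 to 3.01 and Notch2 from 0.73 to 2.01, the low end in both coming from the mean of their probes. Notch1 (-0.65 to 0.47) and Hey1 (-0.75 to 0.22) took both signs. No setting gave a negative value for any of the other 8 genes.

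The rest of the pathway was read from a list of 74 other genes in 10 roles, of which 73 were on the array and 71 were detected. By limma 25 of the 71 passed as higher with CPEB2 IgG and 7 as lower, 35.2% and 9.86%, against 21.2% and 20.4% of all genes, and 39 passed in neither direction. Their median log2 fold change was 0.57, against -0.11 over all genes. Counts by role are a description, with no test of a role against all genes. The counts over the list depended on the setting, with 15 to 36 genes higher and 1 to 14 lower. The counts over all genes also differed between settings, but not always in step with the list. Genes lower in the list went from 7 to 11 with quantile normalization, while all genes went from 4020 to 4047. The list went to 14 lower with normexp background correction, with 4567 lower over all genes. Normexp background correction, which gave the 36, gave 4966 of 19698 genes higher. No filter on dim probes, which gave the 15, gave 2265 of 24164, against 4174 in the main fit.

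**Figure D5:**
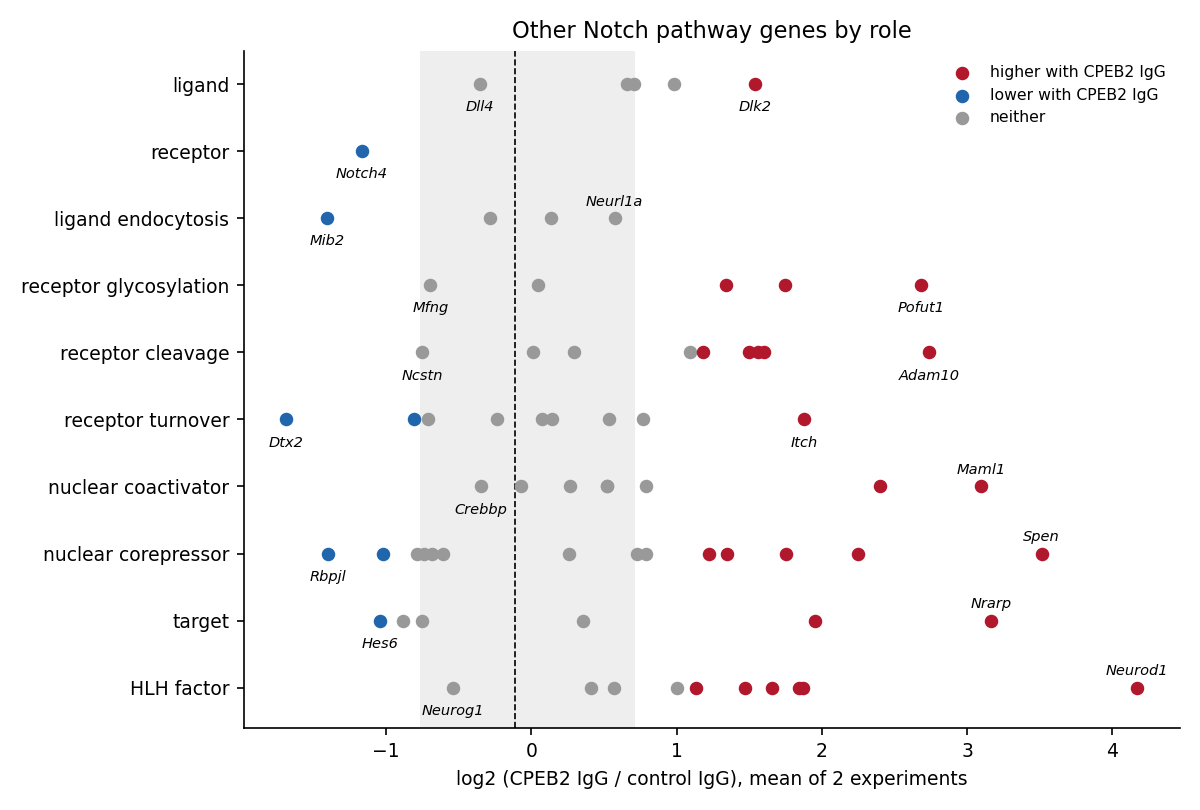
Log2 fold change (CPEB2 IgG over control IgG, mean of the 2 experiments) of 71 other Notch pathway genes, by role, with red for genes higher and blue for genes lower with CPEB2 IgG by limma at an adjusted p of 0.05 and grey for neither. The dashed line is the median and the light band the 25th to 75th percentile of all genes, and Neurod1, Spen, Nrarp and Maml1 lie farthest to the right.

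Of 5 other ligands 1 was higher, a share of 20%, near that of all genes. It was Dlk2, a non-canonical ligand, with 6370 and 6610 against 2007 and 2663 (log2 fold change 1.54, adjusted p = 0.0108; 2.14 with centring within GC bins). Dll4, the Delta ligand of the endothelium, was dim, with 43.9 and 25 against 52.6 and 36.8 (log2 fold change -0.36, adjusted p = 0.297). Notch4, the endothelial receptor, was lower, with 102 and 83.9 against 244 and 190 (log2 fold change -1.17, adjusted p = 0.0178), a call lost without CPEB2 IgG replicate 2 or control IgG replicate 1. Of the 4 detected endothelial markers, Kdr was lower (log2 fold change -0.96), and Pecam1 (0.14), Flt1 (-0.11) and Cldn5 (-0.36) passed in neither direction. Their summed signal was 4608 and 3342 against 7061 and 5911, and their part in the Notch4 value was not tested. Of 4 genes for ligand endocytosis none was higher, and Mib2, a ubiquitin ligase, was lower (log2 fold change -1.40, adjusted p = 0.0135), a call lost with no filter on dim probes. Neurl1a had a log2 fold change of 0.57 (adjusted p = 0.114), and passed at 1.16 with centring within GC bins.

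Of 5 genes for receptor glycosylation 3 were higher and none lower, against 21.2% and 20.4% of all genes. The largest value was that of Pofut1, the O-fucosyltransferase of Notch, which gave 3423 and 2489 against 524 and 424 (log2 fold change 2.68, adjusted p = 0.00543), and Mfng was at -0.70 (adjusted p = 0.115). Of 9 detected genes for receptor cleavage 5 were higher and none lower, 55.6% against the same 21.2%. Adam10, the protease that makes the ligand-dependent cut, gave 7117 and 11366 against 1397 and 1399 (log2 fold change 2.74, adjusted p = 0.00543), and 1.99 with centring within GC bins. Within the gamma-secretase complex Psen2, Aph1a and Aph1b were higher (log2 fold changes 1.18, 1.56 and 1.60), and Ncstn was at -0.75 (adjusted p = 0.115). Centring within GC bins took Psen2 to 0.44, which ended its call, and Aph1b to 0.86, and the mean of its probes took Aph1b to 0.12, which ended that call. Of 9 genes for receptor turnover 1 was higher and 2 lower, 11.1% and 22.2%. The higher one was the ubiquitin ligase Itch (log2 fold change 1.88, adjusted p = 0.00859, and 1.13 with centring within GC bins). The lower ones were Dtx1 (-0.81, adjusted p = 0.0493), a call that 9 alternatives ended, and Dtx2 (-1.69, adjusted p = 0.00767, and -0.94 with the mean of its probes). Numb, which antagonises Notch, gave 335 and 345 against 315 and 357 (log2 fold change 0.07, adjusted p = 0.824).

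In the nucleus, 2 of 8 coactivators were higher, a share of 25% that is near that of all genes, and none was lower. Maml1, the Mastermind protein that completes the complex of RBPJ and the Notch intracellular domain, gave 5002 and 4904 against 642 and 563 (log2 fold change 3.10, adjusted p = 0.00543), Ep300, a histone acetyltransferase, was also higher (log2 fold change 2.40), and its relative Crebbp was at -0.35 (adjusted p = 0.319). With centring within GC bins Maml1 was at 2.35 and Ep300 at 1.65. Of 14 genes listed as corepressors 5 were higher and 2 lower, 35.7% and 14.3%. The 14 include Rbpjl, which is 1 of the 2 lower. Spen, which binds RBPJ in its repressive form, gave 14695 and 11642 against 1335 and 1060 (log2 fold change 3.51, adjusted p = 0.00543, and 2.77 with centring within GC bins), and Rbpjl, a paralog of Rbpj, was lower (log2 fold change -1.40, adjusted p = 0.0280), a call that 6 alternatives ended, centring within GC bins and a fit without the replicate block among them.

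Among 6 other detected genes listed as targets, 2 were higher and 1 lower, 33.3% and 16.7%. Whether each of them is switched on by Notch in this tissue was not tested. Nrarp, a feedback inhibitor of Notch, gave 602 and 665 against 82.2 and 65.4 (log2 fold change 3.16, adjusted p = 0.00543), and the value was 2.17 with normexp background correction. Hey2 gave 163 and 69.6 against 34.1 and 23.9 (log2 fold change 1.95, adjusted p = 0.00905). The Hey2 call was lost with no filter on dim probes and without control IgG replicate 2, and its log2 fold change was 0.96 with normexp and 1.34 to 2.56 with 1 array left out. Hes6, a relative of Hes1 that opposes it, was lower, with 765 and 678 against 1510 and 1577 (log2 fold change -1.05, adjusted p = 0.0263), a call lost with median centring, centring within GC bins, no filter on dim probes, or either control IgG array left out. Heyl was at 0.36 (adjusted p = 0.293), Hes7 at -0.88 (adjusted p = 0.0602) and Hes2 at -0.75 (adjusted p = 0.0896). In the Hes and Hey families, Hes1, Hes5 and Hey2 were thus at 1.95 or more on the log2 scale, Hes2, Hes6 and Hes7 between -1.05 and -0.75, Heyl at 0.36, and Hey1 near 0 with a sign that turned with the scaling.

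Of 10 detected helix-loop-helix factors that Hes proteins repress or pair with, 6 were higher and none lower, 60% and 0% against 21.2% and 20.4% of all genes. Neurod1, a proneural factor, gave 2460 and 6288 against 208 and 246 (log2 fold change 4.17, adjusted p = 0.00543), through a probe of 23.3% GC, and 3.17 with centring within GC bins. All 4 Id genes, Id1 to Id4, were higher (log2 fold changes 1.14 to 1.84), although Id1 was at 0.84 and Id2 at 0.91 with centring within GC bins and Id3 at 2.06, and Neurog1 was at -0.54 (adjusted p = 0.196). With 1 residual degree of freedom per gene these calls rest on the spread that limma shares between genes. For a single gene an exact permutation of 2 arrays against 2 that ignores the pairing cannot give a two-sided p under 0.333. A permutation within the pairs has fewer arrangements still.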

How the data were processed

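RNA recovered with CPEB2 IgG or control IgG was measured on 4 one-color Cy3 arrays (SurePrint G3 Mouse GE 8x60K), 2 per antibody. The authors deposited the scanner output of Agilent Feature Extraction 10.5.1.1, whose spot intensity is background-subtracted and not normalized between arrays. Probe positions (mm9) and symbols come from the array's own annotation. Control spots and spots the software flagged as non-uniform or population outliers were removed, 66 probes with no value on an array were dropped, and the log2 intensity was averaged per probe and scaled to the 75th percentile of 55615 probes. For each named gene the brightest probe well above background on at least 2 of the 4 arrays was used. limma 3.58.1 in R 4.3.3 was fitted to 19698 genes with the experiment as a block (Benjamini-Hochberg, threshold 0.05). The pairing comes from the study's methods, by which lysate was divided between the antibodies, and same-numbered arrays deviated from their group means with a correlation of 0.203. The fit was tested on simulated data.

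The members, the list of other pathway genes and the rules for naming genes were chosen with earlier results of these data known. Named were all members at every probe, in each role the genes with the highest and lowest log2 fold change, Notch4, Dll4, Numb, Hes6, Heyl, Hey2, Adam10 and Maml1, Cpeb2 and Gapdh, and the 3 genes most like Hes1. Other genes named, such as Hes2, Hes7, Psen2, Ep300, the Id genes and the cell type markers, were singled out after their values were seen. Some genes that the rule names are not reported here. Alternatives were quantile normalization, median centring, no scaling, another probe set behind the percentile, normexp background correction with an offset of 50, centring within GC bins, marked spots kept, other probe and filter rules, no block, an intensity trend, and arrays or experiments left out. The number of arrays limits the precision, and it was not stated whether the 2 experiments used separate mice, so SDs and p-values measure the spread between these arrays. Python 3.11.15 with pandas 2.3.3 was used for the other steps. No value from the study's supplementary files was used.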

Additional observations from a re-analysis of the deposited data

How the results depend on the processing

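The members higher with CPEB2 IgG numbered 7 and ranged from 6 to 8 over the alternatives, and 0 were lower except with centring within GC bins, which made Hey1 the 1 lower. The log2 fold change of Hes1 was 4.33 and moved by more than its SD with normexp background correction (3.998) and with centring within GC bins (3.32), and was 4.14 and 4.51 without either experiment. Other pathway genes higher numbered 25, and 15 with no filter on dim probes. Those lower numbered 7, and 11 with quantile normalization, 4 with median centring, 14 with normexp and 1 with no filter. They numbered 13 with probes detected on all 4 arrays and 14 with an intensity trend. Over all genes, 4020 were lower in the main fit, 4047 with quantile normalization, 3301 with median centring and 4567 with normexp. With probes detected on all 4 arrays 4437 of 17822 genes were lower, and with an intensity trend 4681 of 19698. Fits with 1 array left out kept a single array of 1 antibody and had no replicate block, so their counts are not given. Without the replicate block 28 other pathway genes were higher and 5 lower, against 4260 and 3999 over all genes. The members higher were again 7. Over all genes, 2265 were higher and 1837 lower with no filter, which tests 24164 genes. Signs turned for 5 named genes that had passed in neither direction. These were, within GC bins, Dll4 (0.24), Numb (-0.13), Crebbp (0.24), Heyl (-0.39) and Neurog1 (0.055), with the percentile over detected probes Numb (-0.034), and with the mean of probes Crebbp (0.51). With 1 array left out, Dll4 ranged from -0.76 to 0.049, Numb from -0.048 to 0.19 and Heyl from -0.21 to 0.92. Of the named genes that passed, Dtx1 lost the call under 9 of 17 alternatives, Rbpjl under 6, Hes6 under 5, Psen2 under 4 and Notch4 under 3, Aph1a, Aph1b, Hey2 and Id4 under 2 each, and Id1, Id2 and Mib2 under 1, no filter on dim probes. Dtx1 and Rbpjl lost it without the replicate block. Adam10, Dlk2, Dtx2, Ep300, Id3, Itch, Maml1, Neurod1, Nrarp, Pofut1 and Spen kept it under all 17. The cause was not tested. Signals of about 100 or less, as for Jag2 and the other probes of Dll1, Notch1 and Notch2, lie near background, which limits their fold changes. The same holds for the control IgG signals of the brightest Dll1 probe, Jag1, Nrarp and Hey2, among others. With normexp background correction the log2 fold change was 1.89 for Dll1 and 1.90 for Jag1, against 2.79 for each in the main fit.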

Other observations

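The 3 genes whose scaled signal deviated from its own mean most like that of Hes1 over the 4 arrays were Cdca4, Vasn and Mex3d, at Euclidean distances of 0.23, 0.26 and 0.34 on the log2 scale. Their log2 fold changes were 3.95 and 4.28 for Cdca4, 3.92 and 4.25 for Vasn and 3.85 and 4.56 for Mex3d in experiments 1 and 2, against 4.14 and 4.51 for Hes1. Likeness over 4 arrays rests mainly on the difference between antibodies.

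Within 50000 bases of the brightest probes in mm9, 31 other detected probes lay near 9 of the 10 genes. Of these, 10 had a log2 fold change above 0 and 21 below 0. The share of all probes below 0 was not counted, and the median over all genes was -0.11. All 5 probes near Hes5 (2.15) were below 0, from -1.87 (Tnfrsf14) to -0.51, and the probe near Hes1 (4.33) was at -0.18. The probe near Hes1 was dim, with 36.9 and 25.7 against 28.4 and 46.3. Its sign differed between the experiments, at 0.46 and -0.83. The 11 probes near Notch3 (2.54) ran from -1.36 to 0.20, and the 7 near Rbpj (1.97) from -1.03 to 1.77. Near Jag1 (2.79) the 2 probes of Slx4ip were at -0.78 and 0.68, and near Jag2 (1.05) Nudt14 was at -2.25. Near Notch1 (-0.54) Sec16a was at -0.49 and 0610009E02Rik, on the opposite strand, at 1.69. Gm10510 near Dll1 was at 0.24 and Adam30 near Notch2 at 0.13. Several of the neighbouring probes were dim, such as Adam30 with 38.5 and 35.7 against 27.6 and 44.7, which limits their fold changes.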
